A study of Mus musculus with 67 samples.

Results

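Transcript levels of 5 genes that mark the macroglia of the brain were followed in the cerebral cortex of ageing mice. Clu, Slc1a3 and Vim are known from astrocytes, and Car2 and Gpr37 from oligodendrocytes. Counted for them were all probes to which the platform annotation gave exactly 1 gene symbol, that symbol being one of the 5. This gave 6 probes of the 8448 in the table, because Slc1a3 had 2 probes, and 5 of the 4209 genes named in this way. No filter on low values was applied, so all 6 probes were tested. The text gives the probe number where the 2 Slc1a3 probes have to be told apart.

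RNA came from C57BL/6 mice, 1 mouse for each of 67 arrays, and radiolabelled cDNA was hybridised to filters of mouse cDNA clones. Mice fed ad libitum (AL), with regular feed at 100% throughout, numbered 2 males and 3 females at 17-21 days, 3 males and 2 females at 33-44 days, and 5 males with 5 females at every one of the adult ages of 6, 16 and 24 months. Mice on caloric restriction (CR) had regular feed until 13 weeks, fortified feed at 90% and then 75% for 1 week each, and 60% from then on. They numbered 4 males and 5 females at 6 months, 5 males with 5 females at 16 months, and 5 females with 3 males at 24 months. Those 3 males were 673 days old, against 703-743 days in the CR females and 704-743 days in the 24 months AL mice. Comparisons with the 24 months CR group therefore include these younger males. No mice below 6 months were restricted. The labels name no transgene, mutation or drug.

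Astrocytes clear glutamate from synapses, buffer ions and supply neurons, and in ageing or injured brain they can become reactive, with more of their cytoskeletal proteins. Oligodendrocytes wrap axons in myelin, which in the mouse cortex is laid down after birth. Whole cortex mixes these cells with neurons, microglia and vessels. A lower level in such tissue can therefore stand for fewer cells of a type or for less of the RNA in each cell, and these cannot be told apart here.

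Of 10 defining astrocyte markers, 4 were measured by a probe with 1 symbol (Slc1a3, Gja1, Clu and Vim), and 2 of 10 for oligodendrocytes (Car2 and Gpr37). Gfap, Aqp4, Mbp and Mog were not analysed here. Neurons were represented by Nefl alone, 1 of 7 markers, and endothelium by 0 of 4. The glial identity of the tissue signal could therefore be checked against few other genes, and probes of different genes cannot be ranked against each other by level.

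Each value is a z-score, the deposited log intensity of a probe expressed in SDs of its own array, and differences are in z units. The arrays were divided into an earlier set of 45 and a later set of 22, beginning with array number 46. This division accounted for 0.945 of a first principal component that held 48.1% of the variance. Array titles and characteristics do not name these sets, so that share describes the division and does not test it. A pair of arrays labelled as different mice, 16 months AL male replicate 2 and female replicate 2, correlated at 0.99975 with 4312 identical values. The pair was counted as 1 sample wherever a mean pools the sexes, but kept as 2 arrays in the fits. The array that lay farthest from the others was 33-44 days AL male replicate 1, with a root mean square deviation of 0.439 from the mean of its set against a median of 0.169 over arrays. This array was the lowest or highest of all 67 at 19.86% of probes, and the later pair of 33-44 days arrays, male replicate 3 and female replicate 2, at 14.87% and 10.45%. Adult arrays also reached such shares, 14.0% for 16 months CR male replicate 1 and 13.96% for 24 months AL female replicate 5. The 33-44 days group is thus given with and without its male replicate 1 below. The description of 24 months AL male replicate 2 repeats that of this same array, against its own title and characteristics, which were followed here. Without that replicate the 6 differences from 16 to 24 months AL each moved by at most 0.01 after rounding.

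Clu encodes clusterin, a secreted chaperone also called apolipoprotein J, which astrocytes release and which carries lipids. Its probe had a mean z-score of -0.63, at percentile 23.7 of all probe means. The 5 arrays at 17-21 days read -0.81, -0.80 and -0.36 in females and -0.52 and -0.59 in males. At 33-44 days they read -1.63, -0.86 and -0.85 in males and -0.47 and -0.93 in females. The 33-44 days group thus reached lower than the younger one, but the lone value of -1.63 came from the array that stood apart, and the groups overlapped.

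In adult mice the Clu means lay in a narrow band. AL means were -0.60 ± 0.16 at 6 months (SD, n = 10), -0.64 ± 0.15 at 16 months (n = 9) and -0.51 ± 0.15 at 24 months (n = 10). CR means were -0.67 ± 0.18 (n = 9), -0.64 ± 0.16 (n = 10) and -0.60 ± 0.10 (n = 8) at the same ages. The order of the 8 group means ran from 33-44 days AL (-0.95 ± 0.42) up to 24 months AL, with 6 months CR next to the lowest. The step between those lowest groups was larger than the SD of the CR group and smaller than that of the juveniles, and every further step was smaller than the SDs of both neighbours.

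Slc1a3 encodes the glutamate transporter EAAT1, known in rodents as GLAST, which takes up glutamate at astrocyte membranes. Probe 11683 had a mean of 0.23 (percentile 60.8) and probe 16257 a mean of -0.50 (percentile 28.8). At 17-21 days probe 11683 read 0.16, -0.13 and 0.41 in females and 0.25 and 0.35 in males, and at 33-44 days 0.21, 0.20 and -0.17 in males and 0.13 and -0.11 in females. Both of its negative readings at 33-44 days were from the later arrays, and the groups overlapped.

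The other Slc1a3 probe did not follow the same arrays. Probe 16257 read -0.65, -0.31 and -0.53 in females and -0.48 and -0.68 in males at 17-21 days, and -1.33, -0.73 and -0.35 in males and -0.63 and -0.16 in females at 33-44 days. Its lowest reading was again the array that stood apart, whereas its highest was one of the later arrays on which probe 11683 was low. Over the 67 arrays, with the means of the earlier and later sets subtracted, the 2 probes of this one gene correlated at r = -0.16 (r = -0.21 without the array that stood apart). After the deviation of neighbouring probes on the filter was subtracted, the value was 0.19.

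Adult Slc1a3 levels lay close together on both probes. For probe 11683 the AL means were 0.19 ± 0.19 at 6 months, 0.29 ± 0.11 at 16 months and 0.25 ± 0.16 at 24 months, and the CR means 0.23 ± 0.11, 0.24 ± 0.18 and 0.34 ± 0.11. Probe 16257 gave AL means of -0.44 ± 0.09, -0.43 ± 0.11 and -0.48 ± 0.14, and CR means of -0.53 ± 0.13, -0.52 ± 0.25 and -0.52 ± 0.22. The 33-44 days group had the lowest mean of the 8 on both probes (0.05 ± 0.18 and -0.64 ± 0.45), and neighbouring groups in either order differed by less than their SDs.

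Vim encodes vimentin, an intermediate filament protein of immature and reactive astrocytes that is also made by vessels and meninges. Its probe had a mean of 0.85, at percentile 81.1. The readings at 17-21 days, all from the earlier arrays, were 0.94, 0.74 and 1.08 in females and 0.99 and 1.17 in males. At 33-44 days the earlier arrays read 0.87 and 1.13 in males and 1.21 in a female, and the later arrays 0.19 in a male and 0.24 in a female. The 33-44 days readings therefore split by array set rather than by sex.

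That split held for Vim across the whole series. The earlier arrays had a mean of 1.00 ± 0.13 (n = 44) and the later ones of 0.55 ± 0.20 (n = 22), and the set accounted for 65.3% of the variance of this probe, against 29.2% at the median probe. Within the earlier set the AL means at 6, 16 and 24 months were 0.96 ± 0.18 (n = 7), 1.02 ± 0.14 (n = 5) and 1.02 ± 0.07 (n = 6), and the CR means 0.93 ± 0.13 (n = 7), 1.00 ± 0.10 (n = 6) and 1.04 ± 0.06 (n = 5). Within the later set the AL means were 0.66 ± 0.22 (n = 3), 0.57 ± 0.08 (n = 4) and 0.70 ± 0.23 (n = 4), and the CR means 0.42 ± 0.28 (n = 2), 0.44 ± 0.14 (n = 4) and 0.65 ± 0.05 (n = 3). Among these later CR arrays the fitted Vim difference was 0.22 from 6 to 24 months (adjusted p = 0.622 in limma) and 0.20 from 16 to 24 months (adjusted p = 0.996). The distance between the sets exceeded any distance between adult ages inside either of them.

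**Figure D1:**
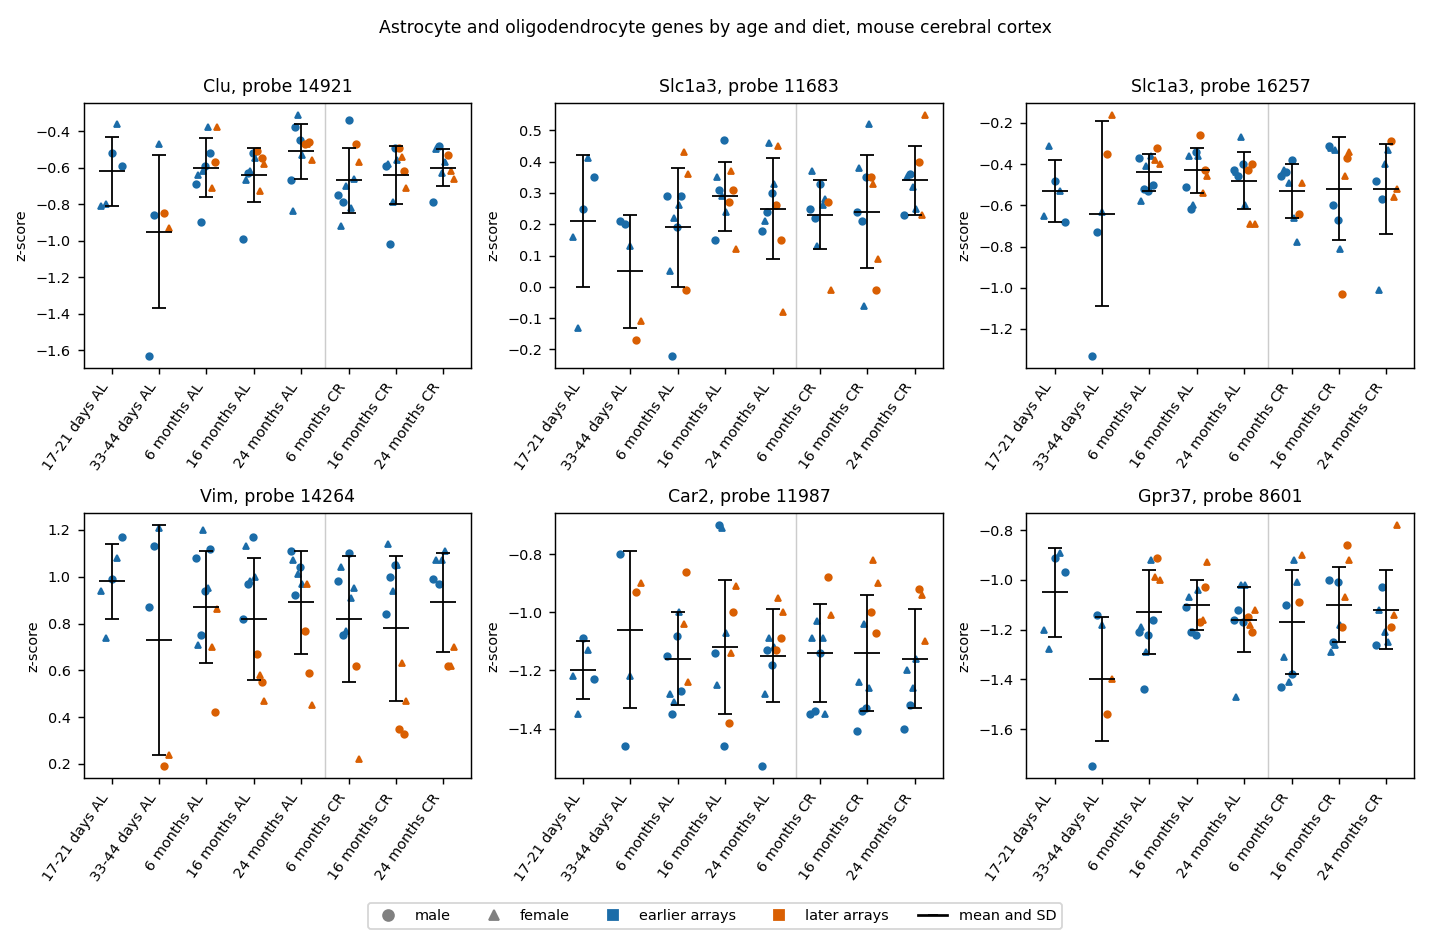
z-score of each of the 6 probes (vertical axis, z units) in 8 groups of age and diet (horizontal axis). Circles are males and triangles females, blue points are the 45 earlier and orange points the 22 later arrays, and black bars show mean and SD with the near-identical pair counted once. The 33-44 days group reaches lowest for Clu, Slc1a3 16257 and Gpr37, with 1 array at -1.63, -1.33 and -1.75, and the orange Vim points lie mostly below the blue ones.

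Car2 encodes carbonic anhydrase 2, a cytosolic enzyme that interconverts carbon dioxide and bicarbonate and is abundant in oligodendrocytes and their myelin. Its probe had a mean of -1.14, at percentile 10.9. Readings at 17-21 days were -1.22, -1.35 and -1.13 in females and -1.09 and -1.23 in males. Those at 33-44 days were -0.80, -1.46 and -0.93 in males and -1.22 and -0.90 in females, which spanned the whole range of the younger group and more on both sides.

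Adult Car2 means lay within one SD of each other. AL mice gave -1.16 ± 0.16 at 6 months, -1.12 ± 0.23 at 16 months and -1.15 ± 0.16 at 24 months, and CR mice -1.14 ± 0.17, -1.14 ± 0.20 and -1.16 ± 0.17. The earlier arrays lay lower than the later ones, at -1.21 ± 0.16 against -1.01 ± 0.13, and 23.2% of its variance followed the set. The near-identical 16 months AL pair read -0.70 and -0.71, the highest values of the 67 arrays for Car2.

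Gpr37 encodes a receptor of oligodendrocytes, also known as the parkin-associated endothelin-like receptor, for which prosaposin has been described as a ligand and which restrains the timing of myelination. Its mean of -1.15 lay at percentile 10.7. At 17-21 days the females read -1.20, -1.28 and -0.89 and the males -0.91 and -0.97. At 33-44 days the males read -1.75, -1.14 and -1.54 and the females -1.18 and -1.40. Every array at 33-44 days was below the mean of the younger group, though the 2 groups overlapped between -1.28 and -1.14.

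In the adult groups the Gpr37 means lay close together. AL means were -1.13 ± 0.17 at 6 months, -1.10 ± 0.10 at 16 months and -1.16 ± 0.13 at 24 months, and CR means -1.17 ± 0.21, -1.10 ± 0.15 and -1.12 ± 0.16. The order of the 8 means ran from 33-44 days AL (-1.40 ± 0.25) to 17-21 days AL (-1.05 ± 0.18). Between the 7 groups other than 33-44 days the means differed by less than the SDs of most of them.

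**Figure D2:**
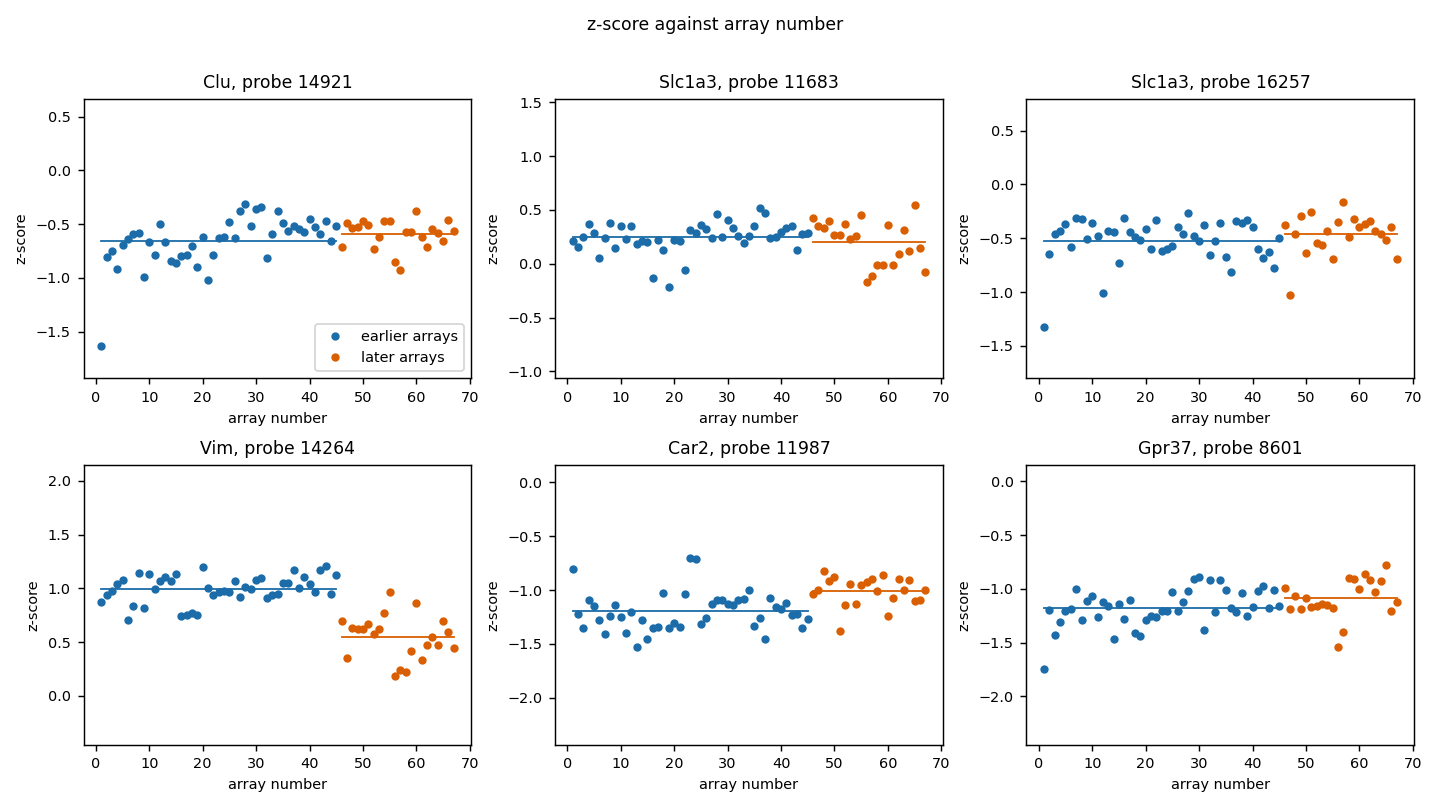
z-score of each probe (vertical axis, z units) against array number (horizontal axis, 67 arrays), with lines at the means of the 45 earlier (blue) and 22 later (orange) arrays. Vim steps down at array number 46, from 1.00 to 0.55 with the near-identical pair counted once, Car2 steps up from -1.21 to -1.01, and the lowest point of Clu, Slc1a3 16257 and Gpr37 is array number 1.

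The first comparison asked whether cortex at 33-44 days differed from cortex at 17-21 days. The means of Gpr37 and Clu were lower and that of Car2 higher in the older juveniles, but 0 of the 6 probes passed an adjusted p of 0.05 in limma, where 0.0947% of all probes passed (8 of 8448, and 0 without 33-44 days AL male replicate 1). The Gpr37 difference was -0.35 (SE 0.110, 95% interval -0.57 to -0.13, adjusted p = 0.145 in limma), and it was lower in 5 of 5 arrays. Clu differed by -0.30 (SE 0.120, interval -0.54 to -0.06, adjusted p = 0.278 in limma), lower in 4 of 5. These were the 2 of 6 probes with an unadjusted p under 0.05, a rule met by 14.0% of all probes. Slc1a3 differed by -0.18 on probe 11683 and -0.06 on probe 16257, Vim by -0.27 and Car2 by 0.13, with the smallest adjusted p among them at 0.400. The arrays of the 2 ages overlapped for all 6 probes, and failed to overlap for 0.947% of all probes.

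The Gpr37 difference did not pass in the main fit (adjusted p = 0.145 in limma) but did with some arrays left out or settings changed. More of all 8448 probes passed there too, such as 214 without 33-44 days AL male replicate 2, against 8 in the main fit. With the array set as a block, where 70 of all probes passed, the Gpr37 difference was -0.39 (adjusted p = 0.0485 in limma). With the cycle in which arrays were numbered added it was -0.39 (adjusted p = 0.0638). It was -0.28 (adjusted p = 0.180) without 33-44 days AL male replicate 1. Leaving out 33-44 days AL male replicate 2, the highest of that group, gave -0.44 (adjusted p = 0.0234), and leaving out female replicate 1 gave -0.41 (adjusted p = 0.0442). Without male replicate 1 the Clu difference became -0.17 (adjusted p = 0.343). The others were then -0.21 and 0.07 for Slc1a3 probes 11683 and 16257, -0.31 for Vim and 0.07 for Car2. Within the earlier set alone, with 3 and 5 arrays, Gpr37 differed by -0.28, Clu by -0.25 and Vim by 0.10, where the pooled Vim difference was -0.27, and the smallest adjusted p was 0.915. No later array was of 17-21 days, so the later set gives no value. In neither sex did an array of one juvenile age share a cycle with the other, and the effects of age and of cycle inside one sex cannot be told apart.

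The second comparison set 6 months AL against 33-44 days AL, the step into adulthood. Clu and Gpr37, the probes with the smallest p in the first comparison, read higher at 6 months, without passing the test. Both Slc1a3 probes and Vim read higher as well. The 6 months arrays ran from -0.90 through a median of -0.60 to -0.38 for Clu, and from -1.44 through -1.17 to -0.91 for Gpr37. For Clu all 10 arrays lay above the 33-44 days mean, with a difference of 0.31 (SE 0.103, interval 0.10 to 0.51, adjusted p = 0.732 in limma). For Gpr37, 9 of 10 did, with a difference of 0.25 (SE 0.094, interval 0.06 to 0.44, adjusted p = 0.806 in limma). Neither passed after adjustment, and 0% of all probes passed. An unadjusted p under 0.05 was reached by these 2 of the 6 member probes and by 5.31% of all probes. Without 33-44 days AL male replicate 1 the 2 differences were 0.18 and 0.18, with adjusted p of 0.881 for both. The other probes then differed by 0.17 and 0.03 for Slc1a3 probes 11683 and 16257, 0.18 for Vim and -0.03 for Car2.

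Later arrays were 2 of 5 at 33-44 days AL and 3 of 10 at 6 months AL. With the array set as a block the differences were 0.31 for Clu and 0.26 for Gpr37. Inside the sets they were uneven. In the later set, where 3 arrays of 6 months met 2 of 33-44 days, Gpr37 differed by 0.52 and Clu by 0.33, and in the earlier set, with 7 and 3 arrays, by 0.12 and 0.25. The smallest adjusted p of any of the 6 probes was 0.117 in the later and 0.424 in the earlier set. Slc1a3 differed by 0.14 and 0.16 on its 2 probes, Vim by 0.15 and Car2 by -0.10, and the groups overlapped for every probe, as for all but 0.0118% of the table. This comparison shares its 33-44 days arrays with the one before it, so that 1 low group enters both.

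Against 17-21 days the 6 months AL arrays differed by between -0.13 and 0.10 over the 6 probes, with intervals that reached from -0.44 to 0.32 and a smallest adjusted p of 0.815. Over all 5 AL ages together, the moderated F test in limma gave an adjusted p of 0.673 for Clu and 0.776 for Gpr37, and 0 of 6 probes passed where 0% of all probes did. An unadjusted p under 0.05 was reached by 5.86% of probes.

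From 16 to 24 months on the AL diet the differences of all 6 probes lay within their error. The 24 months arrays ran from -0.84 through -0.47 to -0.31 for Clu and the 16 months arrays from -0.99 through -0.58 to -0.51, and these ranges overlapped, as they did for the other 5 probes, where 0.0237% of all probes did not overlap. The Clu difference of 0.12 was the largest of the 6 in size (SE 0.083, interval -0.05 to 0.29, adjusted p = 0.933 in limma), with 8 of 10 arrays above the 16 months mean. It was 0.13 within the earlier and 0.10 within the later set. Vim differed by 0.06 (interval -0.20 to 0.31), Slc1a3 by -0.04 and -0.03, Gpr37 by -0.05 and Car2 by -0.07. With the near-identical pair left out the Car2 difference was 0.02. In this comparison 0 of 6 probes passed, as did 0% of all probes.

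Differences over the other adult intervals were of the same size. From 6 to 16 months the 6 differences lay between -0.04 and 0.10 on AL and between -0.04 and 0.08 on CR. From 6 to 24 months they lay between -0.04 and 0.09 on AL and between -0.03 and 0.10 on CR, and from 16 to 24 months on CR between -0.03 and 0.11. The 95% intervals of these comparisons reached no lower than -0.30 and no higher than 0.38 z units for any of the 6 probes, and the smallest adjusted p was 0.999. In each of them 0% of all probes passed. Over the 13 comparisons without the 33-44 days group, those of diet and sex included, 0 member probes reached even an unadjusted p under 0.05, where between 0.462% and 6.57% of all probes did. With cycle and array set as blocks 1 of the 78 values did, that of Vim from 6 to 24 months CR. Its difference was then 0.15 (adjusted p = 0.307 in limma) against 0.07 without the blocks, and -0.02 once the neighbours were subtracted as well. Under those blocks 15.8% of all probes had an unadjusted p under 0.05 in that comparison, and 0% passed.

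Diet was compared at each age and over the 3 ages together. Over 6, 16 and 24 months the 27 CR arrays of Slc1a3 probe 16257 ran from -1.03 to -0.29 and the 29 AL samples from -0.69 to -0.26, a difference of -0.06 (SE 0.052, interval -0.17 to 0.04, adjusted p = 1 in limma). Clu differed by -0.05 (interval -0.15 to 0.05), Vim by -0.04, Car2 by -0.03, Slc1a3 probe 11683 by 0.03 and Gpr37 by 0.00 (interval -0.09 to 0.09). The CR and AL ranges overlapped for every probe, and 0 of 6 probes passed, as did 0% of all probes. With the near-identical pair left out the Car2 difference was 0.01.

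At the single ages the diet differences lay between -0.09 and 0.05 at 6 months, between -0.08 and 0.01 at 16 months and between -0.08 and 0.09 at 24 months. Male mice at 24 months were of 673 days on CR and 714-743 days on AL. In them diet and age cannot be told apart. The test of whether the step from 16 to 24 months differed between the diets gave values between -0.08 and 0.13, with intervals from -0.32 to 0.42 and an adjusted p of 1 for every probe. In each of these 4 comparisons 0% of all probes passed.

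Sex was compared last. Over the 16 groups the female minus male difference was largest for Car2, at 0.06 (SE 0.051, interval -0.04 to 0.16, adjusted p = 1 in limma). The other probes differed by between -0.01 and 0.04, and 0% of all probes passed. In 78 tests of whether the sexes differed in an age or diet effect, the smallest unadjusted p fell to Clu between 17-21 and 33-44 days, where the female difference exceeded the male one by 0.52 with an adjusted p of 1. The lowest Clu reading of that comparison was male replicate 1, the array that stood apart.

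**Figure D3:**
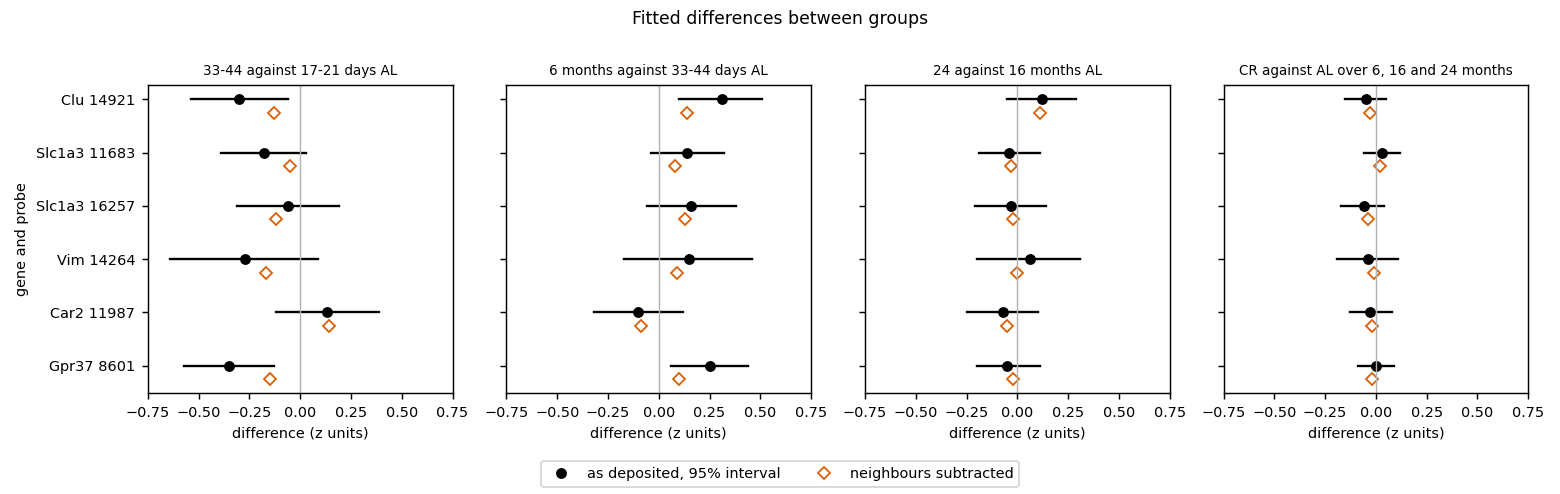
Fitted difference of each probe (horizontal axis, z units) in 4 comparisons, with black dots and 95% intervals for the deposited scores and open orange diamonds after the median deviation of neighbouring probes was subtracted. Intervals lie clear of 0 only for Clu and Gpr37 in the 2 comparisons with 33-44 days, where the diamonds move from -0.30 to -0.13, -0.35 to -0.15, 0.31 to 0.14 and 0.25 to 0.10.

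Readings of these probes moved with those of the probes placed around them. The deviation of a probe from the mean of its array set was compared with the median deviation of the probes around it, in a window 5 wide on a layout read from the values, with 24 rows of 22 columns in each of 16 blocks. Over the 67 arrays this correlation was 0.86 and 0.84 for the Slc1a3 probes, 0.84 for Vim, 0.72 for Gpr37, 0.60 for Clu and 0.31 for Car2, against a median of 0.68 over all probes. Car2 followed its neighbours least, and 92.7% of all probes had a higher value. After the neighbours were subtracted, the 33-44 against 17-21 days difference was -0.15 for Gpr37 (adjusted p = 0.605 in limma) and -0.13 for Clu (adjusted p = 0.611). The neighbours themselves differed by -0.20 around Gpr37 and -0.17 around Clu.

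**Figure D4:**
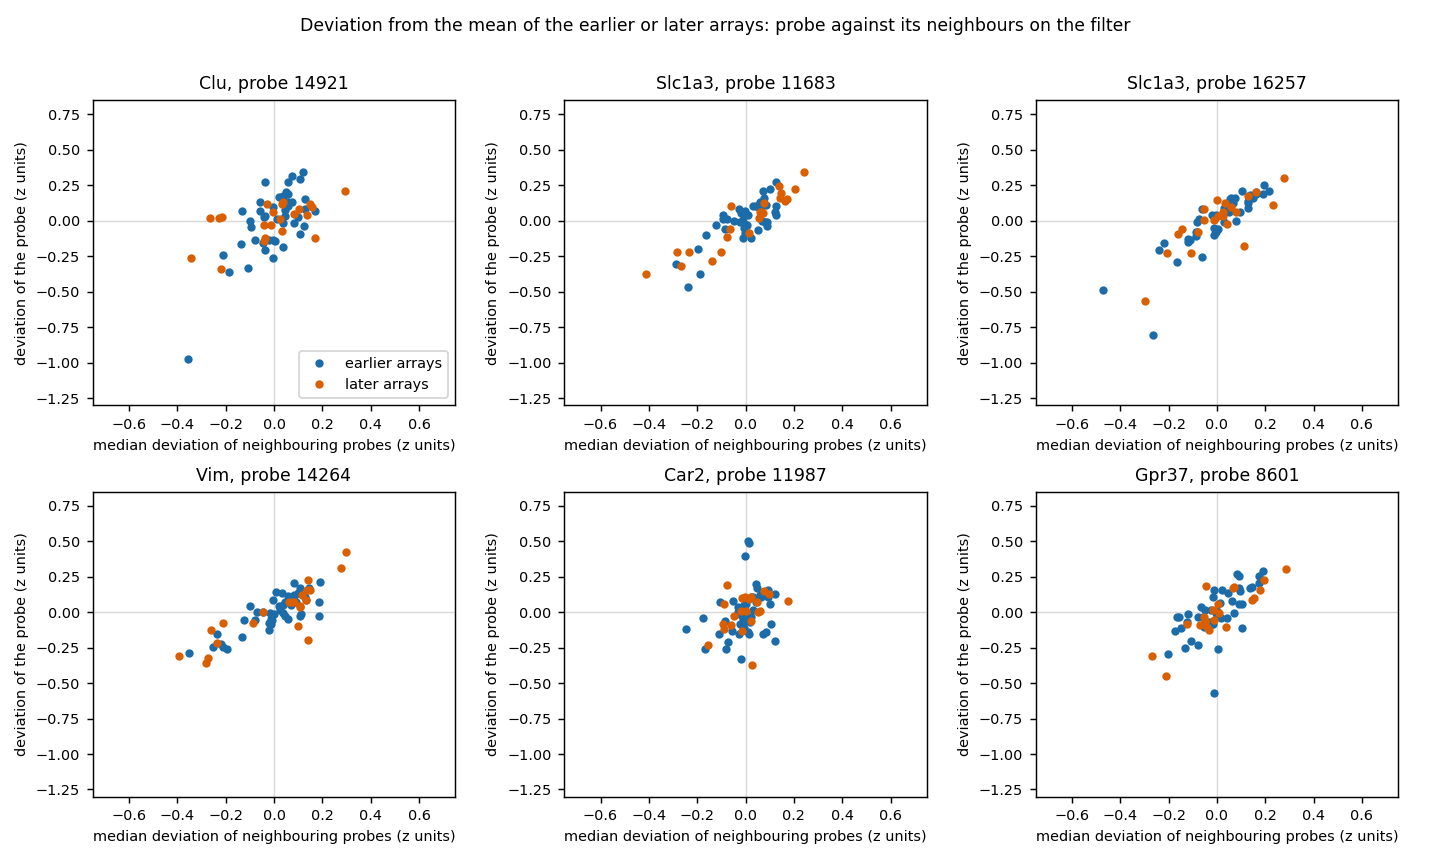
Deviation of each probe from the mean of the earlier or later arrays (vertical axis, z units) against the median deviation of its neighbours on the filter (horizontal axis, z units), 1 point for each of 67 arrays. The points of both Slc1a3 probes and of Vim lie along a line (r = 0.86, 0.84 and 0.84), and those of Car2 scatter (r = 0.31).

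Correlations among the 6 probes over mice ranged widely. With the set means subtracted, the pair that went together most was Slc1a3 probe 11683 and Vim, at r = 0.69 over the 67 arrays. This became 0.12 after the neighbours were subtracted. Other pairs rose with that subtraction. Vim and Slc1a3 probe 16257 went from -0.01 to 0.50, exceeded by 1.9% of probes against Vim. Gpr37 and the same Slc1a3 probe went from 0.11 to 0.47, exceeded by 1.0% of probes against Gpr37. Clu and Gpr37, an astrocyte and an oligodendrocyte gene, correlated at 0.52, a value exceeded by 1.3% of probes against Gpr37. It was 0.37 without 33-44 days AL male replicate 1 and 0.39 after the neighbours were subtracted. Car2 and Gpr37, both from oligodendrocytes, gave -0.09, and Clu and Vim, both from astrocytes, 0.38, which became -0.15 after the neighbours were subtracted. All of these are descriptions over arrays that share groups, array sets and filter positions.

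For each member, the named probes most like it over the 67 arrays often lay close by in the layout used. Some held its place in another block. That layout was read from the values, so these places are a description and not a test of position. Vim was most like Col4a1, a basement membrane collagen (r = 0.88), in the same row 2 columns and 2 blocks away, and like Gtf2b and Cdr2l (both 0.88), which held the same row and column in the adjoining blocks. Clu was most like Plxnb1 (0.77), at its own row and column 2 blocks away, then Slc44a1 and Erlec1 (both 0.69). Slc1a3 probe 11683 was followed by Tefm (0.88), 2 columns away, Vps54 (0.87) and 2210016L21Rik (0.86), and probe 16257 by Rab40c (0.84), also 2 columns away, Ccnt1 (0.83) and Ppp2r5a (0.82).

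The oligodendrocyte genes had other partners. Car2 was most like Atp2a2, a calcium pump (0.67), then Rsph9 (0.66) and Anapc4 (0.64), and Gpr37 was most like Celf3 (0.73), Mmp11 (0.71) and Nkd2 (0.70). Rsph9 and Anapc4 shared the row of Car2, and Mmp11 lay 1 row from Gpr37 in its column.

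Longer lists of markers, which include the 5 genes, were read as well. Of 40 astrocyte genes 9 were measured, on 10 probes, and of 47 oligodendrocyte and myelin genes 8, on 8 probes. In the 15 comparisons and the F test over AL ages 0 of these 18 probes passed. From 17-21 to 33-44 days the median difference was -0.102 over the astrocyte probes, of which 7 of 10 were negative, and 0.024 over the oligodendrocyte probes, of which 6 of 8 were positive, with 0.003 over all probes. The probes of Clu, Slc1a3 and Vim are counted in the astrocyte list and were all negative, so the median is not separate from the members. After Clu and Gpr37, the genes with the next smallest p in each list had differences of the opposite sign. Id3, an inhibitor of helix-loop-helix factors, differed by 0.37 (adjusted p = 0.368 in limma), and Cryab, a small heat shock protein of glia, by 0.51 (adjusted p = 0.297). At 6 months against 33-44 days they differed by -0.32 and -0.53 (adjusted p = 0.980 and 0.754). The mean of the 6 astrocyte probes that are not members was 0.08 at 17-21 days (0.05 to 0.14 over arrays). At 33-44 days it was 0.12 (-0.01 to 0.28). For the 6 oligodendrocyte probes that are not members the means were 0.01 and 0.12.

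Over adult age and diet the astrocyte medians lay nearer 0. From 16 to 24 months AL the astrocyte median was -0.024 and the oligodendrocyte median -0.044, with Pmp22, a myelin protein mainly of peripheral nerve, at -0.30 (adjusted p = 0.902), Josd2, a deubiquitinase, at 0.08 and Cst3, a protease inhibitor, at -0.08 (adjusted p = 0.999 for both). For CR against AL over 3 ages the medians were -0.031 and -0.014, and Gsn, an actin-severing protein, differed by -0.07, Cst3 by -0.05 and Bcas1, a gene of myelinating cells, by -0.04 (adjusted p = 1 for each).

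Genes that work with the members were read in the same way. The list of glutamate uptake and the glutamine cycle held 8 measured genes on 11 probes and 0 passed in any comparison. Slc38a3, a glutamine transporter, differed by 0.35 from 6 to 16 months AL (adjusted p = 0.999 in limma) and by -0.31 from 16 to 24 months (adjusted p = 0.685). Got2, the mitochondrial aspartate aminotransferase, differed by -0.26 between 33-44 and 17-21 days (adjusted p = 0.297) and by -0.08 after the neighbours were subtracted. Among intermediate filaments, with 4 genes on 5 probes, Plec, a linker of filaments, differed by 0.45 at 33-44 days (adjusted p = 0.419), and the 2 probes of Nefl, a neuronal filament, by -0.06 and -0.04.

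In the remaining lists 0 probes passed as well. Clusterin, apolipoproteins and their receptors had 6 genes on 8 probes, of which Lrp2, an endocytic receptor that takes up clusterin, differed by -0.20 from 16 to 24 months AL (adjusted p = 0.610 in limma) and Abca1, a lipid exporter, by -0.01. Carbonic anhydrases and bicarbonate transporters had 7 genes on 7 probes, where the exchangers Slc4a3 and Slc4a2 differed by -0.18 and -0.14 between 33-44 and 17-21 days (adjusted p = 0.404 and 0.429). Beside Gpr37, the list of prosaposin and parkin held only Psap, the prosaposin gene, which differed by 0.14 in that comparison (adjusted p = 0.697).

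Markers of other cells were measured beside the juvenile step, with their part in it not tested. Of 8 microglial, 4 endothelial and mural, 4 neuronal and 11 meningeal and choroid plexus probes, 0 passed. The summed lists gave per-array means from -0.22 to -0.08 at 33-44 days and from -0.20 to -0.07 at 17-21 days for microglia, and from -0.38 to 0.04 and from -0.43 to -0.16 for neurons. Of 21 red cell probes 1 passed, where 8 of all 8448 probes did (0.0947%). The called probe was 1 of 4 for Hbb-y, an embryonic beta-like globin, at -0.42 (adjusted p = 0.0265 in limma) and -0.17 after the neighbours were subtracted. The other Hbb-y probes differed by -0.46, 0.05 and -0.05. Without 33-44 days AL male replicate 1 the called probe had an adjusted p of 0.0581. The call was lost without any one of 6 of the 10 arrays, namely all those of 33-44 days other than male replicate 2 and female replicate 1, both 17-21 days males and 17-21 days female replicate 3, with adjusted p up to 0.994.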

How the data were processed

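Cerebral cortex RNA from 67 C57BL/6 mice was labelled with radioactive dCTP and hybridised to cDNA filters, 1 mouse to each. The authors transformed log intensities to z-scores within each array and deposited these scores for 8448 probes. In the deposited table, arrays had means from -0.0002 to 0.0001 and SDs from 0.9999 to 1.0001. The sources used here do not give the logarithm's base, the background treatment or a genome build, and no intensities were used, so a difference in z units has no fold change. The number of arrays limits the precision, and nothing in the labels numbers replicates beyond 1 mouse per array.

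Probes were named where the platform annotation gave 1 symbol (4875 probes, 224 had several and 3349 none), and 4861 of these matched the RefSeq gene table by gene number with 0 changed symbols. No probe sequence was used here.

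Groups came from the titles and characteristics in the labels, also for the 1 array whose description disagreed with them (24 months AL male replicate 2). limma 3.58.1 in R 4.3.3 fitted a mean for each of 16 groups, and 15 comparisons and an F test over AL ages took two-sided moderated p-values from eBayes, adjusted by Benjamini-Hochberg over 8448 probes, at a threshold of 0.05. Sexes had equal weight. The members, the 12 marker and function lists and the rules for naming genes were chosen with earlier results of these data known. Beside all member probes, the text names the list members with the smallest p (2 in each glial list, given for the 4 comparisons described probe by probe, 2 in each function list by the F test) and the 3 probes most like each member by Pearson correlation. The fit was tested on simulated data. Alternatives were quantile normalization, median centring, a filter on mean score above 0, compared groups only, array set and cycle (5 cycles) as blocks, subtraction of neighbouring probes in a window of 5, the near-identical pair left out, array weights, robust eBayes with trend, each array left out in turn, and the selection rule of the methods (z-ratio of at least 1.5, mean score above 0 and p under 0.05). Leaving out the near-identical pair together with both blocks was added after seeing the data.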

Additional observations from a re-analysis of the deposited data

Results flagged for a closer look

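A lone value, far from the others of its group of age, diet and sex, was found in 8 of 66 groups and probes by Dixon's test, which picks out about 1 group in 20 by chance. Of these, 7 lay below their group and 1 above. Clu read -1.02 in 16 months CR male replicate 2, where the nearest value was -0.62, and -0.99 in 16 months AL male replicate 1, where it was -0.63. Slc1a3 probe 16257 read -0.58 in 6 months AL female replicate 1, against a nearest value of -0.41, and -0.81 in 16 months CR female replicate 3, against -0.46. Vim read 0.45 in 24 months AL female replicate 5, a later array, with the nearest value at 0.97. Car2 read -1.35 in 6 months CR female replicate 4, against -1.09, and -1.53 in 24 months AL male replicate 1, against -1.18. Gpr37 read -0.78 in 24 months CR female replicate 5, above a nearest value of -1.12.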

How the results depend on the processing

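The number of member probes past the threshold stayed at 0 in 220 of 221 recomputed counts under 14 alternative settings. It became 1 (Gpr37) at 33-44 against 17-21 days with the array set as a block, where 70 of all probes passed, and the count over the glial lists became 1 with it. With each array left out in turn, that count ranged from 0 to 1, being 1 without 33-44 days AL male replicate 2 (214 of all probes passed) or female replicate 1 (441), and it was 0 in every other comparison. The filter on mean score above 0 left out Clu, Slc1a3 probe 16257, Car2 and Gpr37, so the counts under that setting could not include them.

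Single differences were followed in 4 comparisons. Of 296 values, 13 changed sign. The main differences concerned were -0.27 for Vim between 17-21 and 33-44 days, -0.10 for Car2 from 33-44 days to 6 months, -0.07 for Car2 and 0.06 for Vim from 16 to 24 months AL, and -0.03 for Car2 and 0.00 for Gpr37 for diet. For CR against AL, Gpr37 became 0.00 with quantile normalization and with the array set as a block, 0.01 with the cycle, with cycle and set, and with the near-identical pair left out as well, and Car2 became 0.01 without the pair and 0.03 without it under both blocks. From 16 to 24 months AL, Vim became 0.00 with neighbours subtracted, alone or under both blocks, and Car2 0.02 without the pair and 0.05 without it under both blocks. From 17-21 to 33-44 days Vim became 0.01 with neighbours subtracted under both blocks, and from 33-44 days to 6 months Car2 became 0.01 with array weights. Of 612 values with an array left out, 31 changed sign, in these ranges: Slc1a3 probe 16257 from -0.18 to 0.07 between 17-21 and 33-44 days, Vim from -0.10 to 0.39 from 33-44 days to 6 months, Slc1a3 probe 11683 from -0.06 to 0.01 from 16 to 24 months AL, and Gpr37 from -0.01 to 0.01 for diet. The cause was not tested.

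In the other 11 comparisons, whose differences are given as ranges, 101 of 808 values changed sign under an alternative and 0 passed, and all lay between -0.14 and 0.15. Under the selection rule of the methods 0 member probes were selected, but 4 of the 6 had a mean score below 0 and could not be. In its own linear model 1 of 84 member values met the z-ratio and p parts, that of Gpr37 at 6 months against 33-44 days (z-ratio 1.90). The share of all probes that met those parts is not given here, so the count says nothing particular of the members. No paired analysis was possible because the labels give no replicate numbers that groups could share. Depth is unknown, since no intensities or counts were used. Between the juvenile groups, with 5 arrays in each, the widest 95% interval was that of Vim, from -0.64 to 0.09. That fit held no term for the array set. With the set as a block the Vim difference was -0.08 in place of -0.27.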
